A study of Bos taurus with 30 samples.

Results

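MiR-126 yields a pair of mature miRNAs from a single hairpin, miR-126-5p and miR-126-3p, each named for the arm of the hairpin it comes from. Both bovine rows, bta-miR-126-5p and bta-miR-126-3p, were taken by name from the 1030 mature miRNAs of the deposited table, and both were among the 476 that passed the filter on low counts. They were measured by small RNA sequencing of the hypothalamic arcuate nucleus (ARC), a hub for signals of energy balance, in 30 Holstein-Friesian bull calves with 1 library per calf. From 2 weeks of age, 15 calves on a high plane of nutrition (HI) were given 1.5 kg of milk replacer in 10 litres each day with concentrates ad libitum. The other 15 calves, on a moderate plane (MOD), were given 0.5 kg of milk replacer in 4 litres each day with 0.5 kg of concentrates. All calves shared the breed and sex, and tissue was taken at 12 weeks of age.

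In mammals, miR-126 is known chiefly from endothelial cells, the lining of blood vessels, where it lies within the gene of the secreted endothelial protein EGFL7. The 3p arm is known for repressing SPRED1 and PIK3R2, inhibitors of the signalling that follows VEGF, and VCAM1, an adhesion molecule for leukocytes, while the 5p arm is known for repressing DLK1, an inhibitor of Notch signalling. The ARC borders the median eminence, whose leaky capillaries let blood-borne hormones reach the hypothalamus. In the RefSeq gene table for assembly ARS-UCD2.0, the precursor gene MIR126 (gene ID 790994) lay on chromosome 11 within the span of EGFL7 (gene ID 613671), with AGPAT2 as a neighbouring gene. That table does not say whether the precursor is in an exon or an intron, and its coordinates belong to a later assembly than the ARS-UCD1.2 used for these data.

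Sequencing depth on miRNAs was 6291376 to 21083250 reads per library, in a shallower class of 21 libraries (12 HI and 9 MOD) and a deeper class of 9 libraries (3 HI and 6 MOD), set apart by the largest gap in depth. The neuronal miR-9-5p and miR-124a averaged normalised read counts of 44374 and 5824, while 9 calves (5 HI and 4 MOD) stood above the others in a list of pituitary and epithelial miRNAs. The 9 lowest animal codes (7 HI and 2 MOD, all in the shallower class) were set apart in earlier work on the same values and served here as a further class of libraries. No cell type was separated before sequencing, so that the endothelial origin of miR-126 was not measured, and in such bulk tissue fewer cells of a type cannot be told apart from less RNA per cell.

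Both arms were abundant in every ARC library. Values are normalised read counts in the form of CPM, reads per 1000000 reads counted, over TMM-scaled library sizes, where TMM (trimmed mean of M-values) adjusts each library for its RNA composition. For miR-126-5p they ran from 11372 in HI calf A93744 over a median of 17127 to 24847 in HI calf A13745, with a mean of 17404 ± 3502 (SD, n = 30). For miR-126-3p they ran from 1193 in MOD calf A38765 over a median of 2273 to 4041 in MOD calf A97821, with a mean of 2286 ± 614 (SD, n = 30). By mean level, the 5p arm was 14th and the 3p arm 60th of the 476 miRNAs tested. The lowest 5p value was therefore above the highest 3p value, and the ranges of the arms did not meet.

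Behind these values stood 89096 to 381083 reads of miR-126-5p and 10649 to 65025 reads of miR-126-3p per library. As a share of the reads counted, the 5p arm took 1.72% ± 0.218 (SD, n = 30; range 1.37% to 2.22%) and the 3p arm 0.227% ± 0.0537 (SD, n = 30; range 0.139% to 0.363%). The spread of the 5p arm depended on the scaling. On the log2 scale its SD between calves was 0.292 in the deposited values, the 138th smallest of 476, and 0.179 by library size only, the 16th smallest. For the 3p arm the SD was 0.381 as deposited (260th smallest) and 0.351 by library size only (158th smallest).

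**Figure D1:**
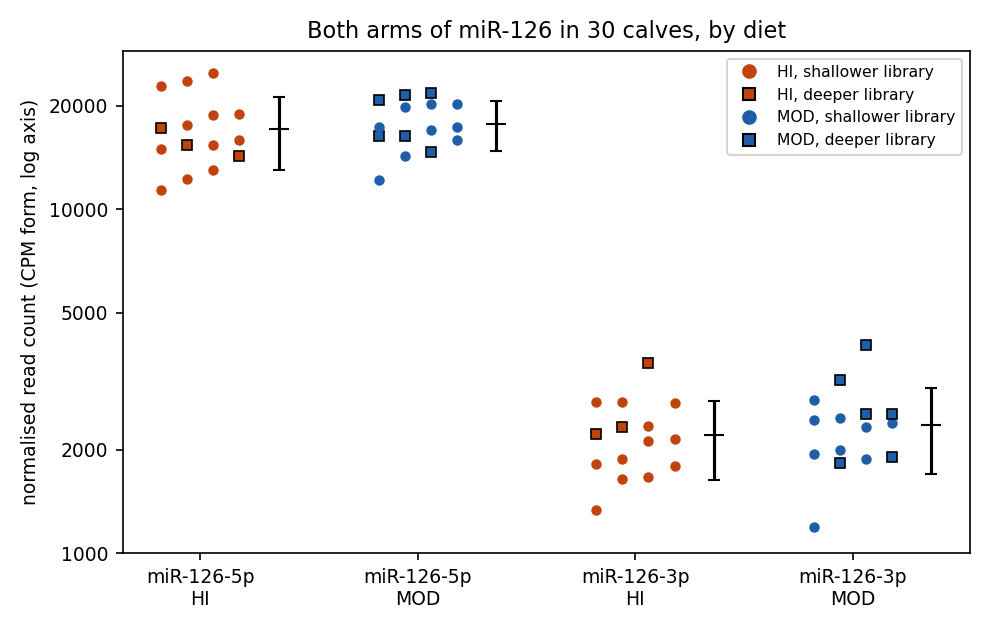
Normalised read count (log axis) of miR-126-5p and miR-126-3p in each of the 30 calves by diet. Points are calves (circles shallower and squares deeper libraries), and bars give the mean ± SD of the 15 calves of a diet. The 5p arm lies between 11372 and 24847 and the 3p arm between 1193 and 4041, and the HI and MOD points overlap for both arms.

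The first comparison asked whether either arm differed between the planes of nutrition, and neither passed the thresholds. For miR-126-5p, the HI calves ran from 11372 over a median of 15868 to 24847, with a mean of 17096 ± 4096 (SD, n = 15). The MOD calves ran from 12133 over a median of 17302 to 21838, with a mean of 17712 ± 2903 (SD, n = 15). The range of the MOD calves lay inside that of the HI calves, and 6 of 15 HI calves were above the MOD median. The HI minus MOD difference was -0.07 on the log2 scale (SE 0.11, 95% interval -0.29 to 0.15, adjusted p = 0.982 in limma with Benjamini-Hochberg adjustment over 476 miRNAs).

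For miR-126-3p, the HI calves ran from 1335 over a median of 2153 to 3574, with a mean of 2207 ± 572 (SD, n = 15). The MOD calves ran from 1193 over a median of 2396 to 4041, with a mean of 2364 ± 663 (SD, n = 15). Here the HI range lay inside the MOD range, the reverse of the 5p arm, and 4 of 15 HI calves were above the MOD median. The HI minus MOD difference was -0.09 on the log2 scale (SE 0.14, 95% interval -0.37 to 0.19, adjusted p = 0.982 in limma).

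Of the 476 miRNAs tested, limma called 0 between the diets (0%), the thresholds being a fold change over 1.5 with adjusted p below 0.1, with 21 at an unadjusted p under 0.05. The count tests on recovered reads called 0 (edgeR's quasi-likelihood test, 20 at an unadjusted p under 0.05) and 1 (DESeq2, 21). With the animal code class in the model the difference of the 5p arm was -0.19 (limma, adjusted p = 0.999).

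None of the vascular miRNAs listed beside miR-126 was called between the diets either. Of 14 endothelial and angiogenic miRNAs, 9 had a higher and 5 a lower mean log2 value in HI than in MOD calves, with a median difference of 0.01 (range -0.08 for miR-130a to 0.12 for miR-24-3p). Of 7 miRNAs of vascular smooth muscle and pericytes, the contractile and supporting cells of the vessel wall, 3 were higher and 4 lower, with a median of -0.12. The lowest of these was miR-145, a smooth muscle miRNA, at -0.46 (adjusted p = 0.878 in limma). Over all 476 miRNAs the median difference was -0.00220.

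The second question was how the arms divide the reads of miR-126. The ratio of 5p to 3p reads within a library does not depend on the scaling between libraries, although how well each arm was captured in library preparation was not measured. The ratio ran from 4.83 in HI calf A42931 over a median of 7.65 to 10.5 in HI calf A31979, with a mean of 7.87 ± 1.56 (SD, n = 30). All 30 libraries thus held more 5p than 3p reads. On the log2 scale the ratio was 2.95 ± 0.294 (SD, n = 30), while counting error alone would give an SD of 0.0109. The spread between calves was 27.0 times the counting error, which accounted for 0.137% of the variance.

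The arm ratio did not separate the diets. It ran from 4.83 over 7.999 to 10.5 in HI calves and from 5.14 over 7.61 to 10.2 in MOD calves (lowest, median and highest of 15). The HI minus MOD difference was 0.02 on the log2 scale (SE 0.11, 95% interval -0.20 to 0.25, two-sided permutation test, p = 0.846, n = 15 and 15). This is also the test of whether the diet difference itself differed between the arms. Within the library classes its direction changed, at 0.05 in the shallower class (p = 0.643), -0.28 in the deeper class (p = 0.226), -0.02 among the lowest animal codes (p = 0.889) and -0.15 among the other codes (p = 0.212), each by an exact permutation test.

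**Figure D2:**
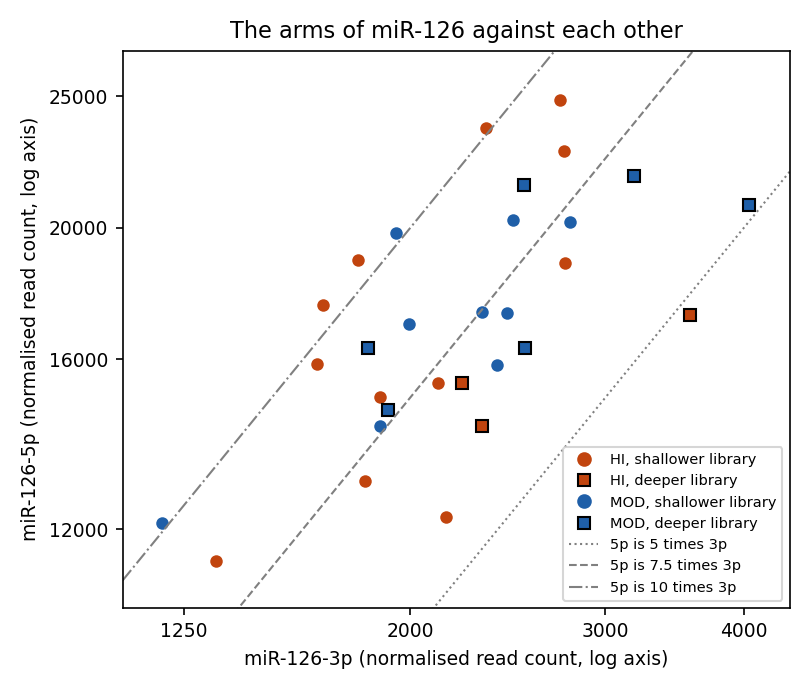
Normalised read count of miR-126-5p against that of miR-126-3p (both axes log), 1 point per calf, coloured by diet, with squares for deeper libraries. Grey lines mark 5, 7.5 and 10 reads of 5p per read of 3p. Both arms vary together (r = 0.646) and the calves lie between ratios of 4.83 and 10.5.

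Among the 42 miRNAs with both arms tested, 24 had the higher mean level on the 5p and 18 on the 3p arm, and miR-126 had the 13th largest ratio of 5p to 3p. Its geometric mean ratio of 7.72 lay nearest to those of miR-17 (7.69), a member of a growth-promoting cluster, miR-425 (6.93) and miR-99a (6.54). The SD of the log2 ratio of miR-126 was the 21st smallest of 42, beside a median of 0.328 over the other 41 pairs. The smallest SD was that of the leukocyte miR-142 (0.123) and the largest that of miR-193a (0.714). By this rank the spread of the miR-126 ratio was thus in the middle of the range of the other hairpins. The others held more counting error than miR-126 (0.0109). Counting error alone would give an SD of 0.462 for miR-149 (observed 0.478) and 0.510 for miR-1247 (observed 0.684). In the other pairs with the least counting error, the observed SD was 0.358 for miR-129, 0.264 for miR-99a, 0.262 for miR-9 and 0.189 for miR-151. A ranking with counting error taken out was not made.

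The arms of miR-126 varied together between calves. Of the 30 calves, 12 were above the mean log2 value for both arms, 11 below it for both, and 7 above it for 1 arm and below it for the other. Pearson's r of the log2 values was 0.646 (permutation test, p = 0.00015, n = 30) and Spearman's rho was 0.624 (permutation test, p = 0.00043). With the 2 most distant calves left out, r was 0.582. It was 0.545 in the HI calves (permutation test, p = 0.0352, n = 15) and 0.792 in the MOD calves (permutation test, p = 0.00044, n = 15), a difference that was not tested. Spearman's rho was 0.468 in the HI calves (permutation test, p = 0.0817) and 0.757 in the MOD calves (permutation test, p = 0.00166). Within the classes r was 0.710 in shallower libraries, 0.648 in deeper ones (exact permutation test, p = 0.0607, n = 9), 0.747 among the lowest animal codes and 0.793 among the others. Among the lowest codes rho was 0.567 (exact permutation test, p = 0.121). With scaling by library size only, r was 0.546 (permutation test, p = 0.00146). The other 41 pairs had a median r of 0.605, and 18 of them had a higher r than miR-126.

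The arm ratio was lower in the deeper class of libraries, and over the shallower class as a whole it did not fall with depth. In the 9 deeper libraries it ran from 4.83 over a median of 6.87 to 8.91, and in the 21 shallower ones from 5.69 over 8.18 to 10.5. The classes overlapped, with 7 of 9 deeper libraries below the median of the shallower ones. The deeper minus shallower difference was -0.29 on the log2 scale (SE 0.11, 95% interval -0.51 to -0.08), or 0.816-fold, with p = 0.00988 (two-sided exact permutation test). Across the 42 arm pairs the adjusted p was 0.104 and miR-126 ranked 4th by p, with 7 pairs at an unadjusted p under 0.05 and 0 called (0%). Among HI calves the log2 difference came to -0.50 (exact permutation test, p = 0.0176, n = 3 and 12) and within the MOD calves -0.17 (exact permutation test, p = 0.220, n = 6 and 9).

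Within the 21 shallower libraries, the log2 arm ratio rose with the log2 reads counted (r = 0.624, rho = 0.603, permutation test, adjusted p = 0.0107 and 0.0186 over 4 groups of libraries), and r was 0.444 without the 2 libraries farthest in depth. Within the 9 deeper libraries r was -0.196 (exact permutation test, p = 0.620). In the shallower class r was -0.371 among the 9 lowest animal codes (exact permutation test, p = 0.330) and 0.764 among the 12 other calves (permutation test, p = 0.00664). For these 12 calves rho was 0.643 (permutation test, adjusted p = 0.0577), and r was 0.522 without the 2 libraries farthest in depth. The pituitary list score had r = 0.533 with the arm ratio in the 21 shallower libraries, beside 0.038 in the deeper class, with no test in either class. Over all 30 libraries that r was 0.323 (permutation test, adjusted p = 0.152). The part of this score in the relation with depth was not tested. These relations were computed after seeing the data.

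Depth and animal code overlapped, since the 9 lowest codes were all shallower, and 4 of these 9 calves were also high in pituitary miRNAs. Among these 9 calves the ratio ran from 6.84 over 9.64 to 10.5, and among the 21 others from 4.83 over 7.24 to 10.2, a description with no test. Without the lowest codes, deeper libraries differed by -0.17 (exact permutation test, p = 0.148, n = 9 and 12). Without the 9 calves high in pituitary miRNAs it was -0.21 (exact permutation test, p = 0.0861, n = 6 and 15). The part of animal code and depth in the arm ratio was not tested further. Taken arm by arm, with diet in the limma model, the 5p arm differed between depth classes by 0.02 on the log2 scale (SE 0.12, adjusted p = 0.991), or by 0.19 with the animal code class as a further term (adjusted p = 0.752), and the 3p arm by 0.32 (SE 0.14, unadjusted p = 0.0319, adjusted p = 0.783). Limma called 0 of 476 miRNAs (0%) between the depth classes, with 24 at an unadjusted p under 0.05, and edgeR's quasi-likelihood test called 0, with 30.

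**Figure D3:**
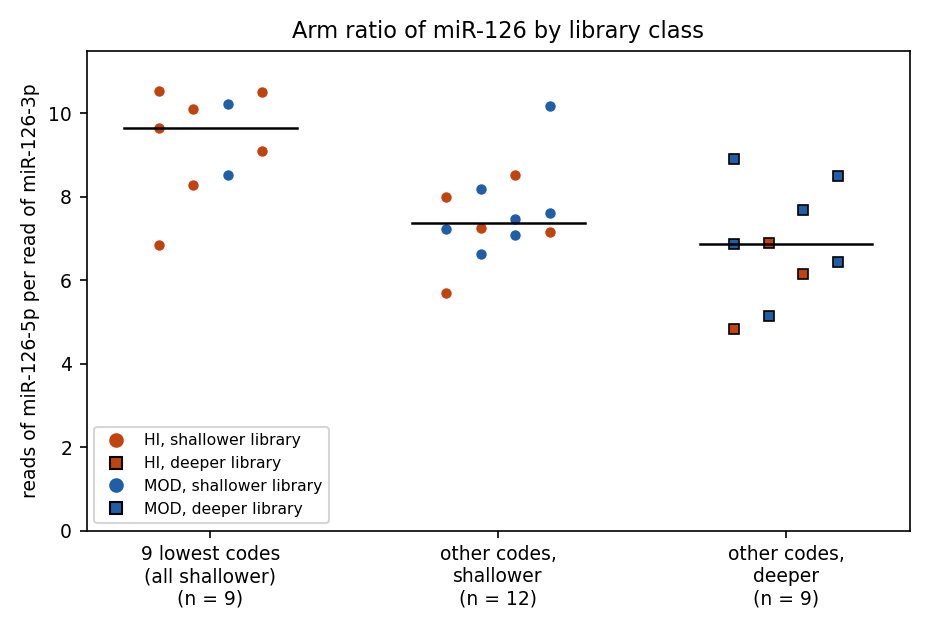
Reads of miR-126-5p per read of miR-126-3p in each calf, for the 9 lowest animal codes, the other shallower libraries and the deeper libraries. Points are calves coloured by diet, and black lines are medians. The lowest codes have the highest median (9.64) and the deeper libraries the lowest (6.87), with overlapping points.

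The arm ratio of miR-126 went with the arm ratios of other hairpins. Over the 30 calves, it was correlated with 16 of the 41 other arm ratios at an adjusted p under 0.05, 11 positively (26.8%) and 5 negatively (12.2%). The closest was miR-29d, whose ratio ran from 9.02 over a median of 27.97 to 55.7 reads of 5p per read of 3p. Calves with more 5p than usual for miR-126 had less of it for miR-29d (r = -0.867, rho = -0.869, permutation test, adjusted p = 0.000205 for each). This relation was -0.856 in shallower and -0.853 in deeper libraries, -0.833 among the lowest codes and -0.827 among the others, and -0.835 without the 2 farthest calves.

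The closest positive relation was with miR-411c, an imprinted-cluster miRNA whose ratio ran from 0.703 over 1.22 to 2.79 (r = 0.782, rho = 0.787, permutation test, adjusted p = 0.000205 for each). It was 0.824 in shallower and 0.770 in deeper libraries, and 0.753 without the 2 farthest calves. Many of these relations had a smaller r in deeper libraries. Of the 11 positive relations, all 11 had r over 0.5 in the shallower class, from 0.563 to 0.824, while in the deeper class 8 kept a positive r and 3 had r over 0.5. Without the lowest animal codes many were smaller as well. Among the other codes 10 of the 11 had a positive r and 4 had r over 0.5, from -0.218 to 0.702. Among the lowest codes 10 had a positive r and 5 had r over 0.5. The 5 negative relations had a negative r in both depth classes, from -0.853 to -0.260 in the deeper class, and from -0.827 to -0.172 among the other codes. With 9 deeper libraries, a difference between the classes was not tested. The ratio of miR-22 had r = -0.691 over all calves (adjusted p = 0.00041, permutation test), with -0.788 in shallower and -0.336 in deeper libraries. That of miR-9 changed sign, with r = 0.467 over all calves (adjusted p = 0.0269, permutation test), 0.626 in shallower and -0.516 in deeper libraries. Against the levels of single miRNAs, the miR-126 arm ratio was correlated with 74 of 474, 30 positively (6.33%) and 44 negatively (9.28%). The lowest r was that with miR-197 (-0.817), followed by miR-29d-5p (-0.799) and miR-22-5p (-0.790). Of the 21 listed vascular miRNAs, miR-18a of the miR-17-92 cluster was the one called (r = -0.765, permutation test, adjusted p = 0.00118), so that its level was lower where the 5p arm of miR-126 took a larger share.

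**Figure D4:**
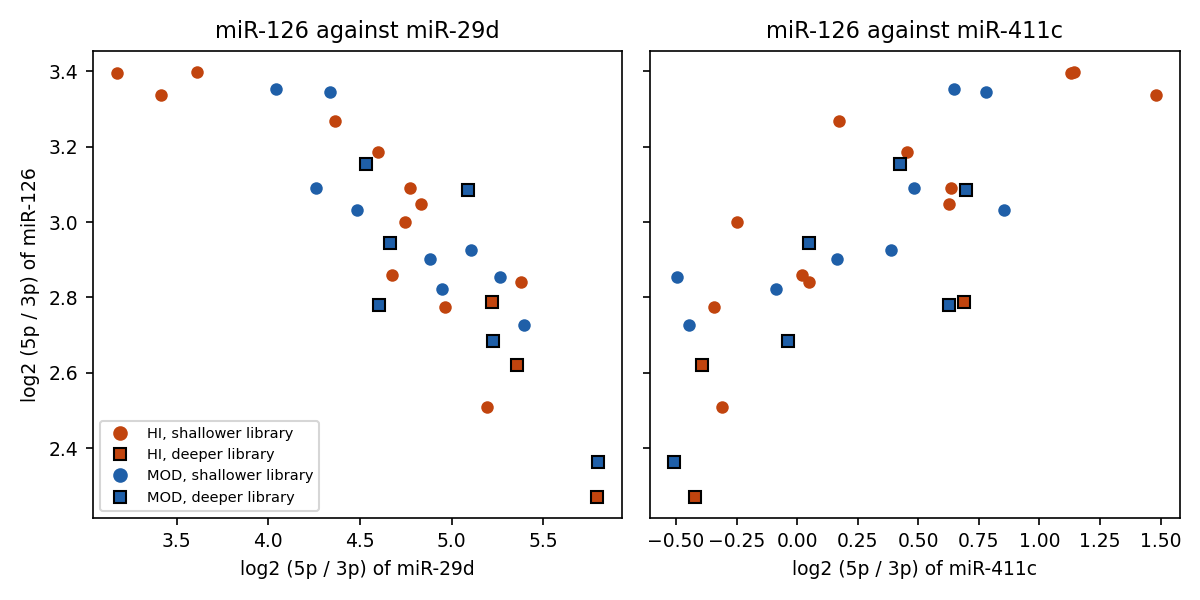
Log2 ratio of 5p to 3p of miR-126 (vertical) against that of miR-29d (left) and miR-411c (right), 1 point per calf, coloured by diet, with squares for deeper libraries. The points descend for miR-29d (r = -0.867) and ascend for miR-411c (r = 0.782), in deeper and shallower libraries.

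The last comparison set miR-126 beside other vascular miRNAs. Over 474 other miRNAs, the mean log2 value of the arms was correlated positively with 36 (7.59%) and negatively with 52 (11%) at an adjusted p under 0.05 (permutation test). Of the 14 endothelial and angiogenic miRNAs, 6 were positive and 1 negative, with a median r of 0.342 beside -0.056 over all 474. Of the 7 miRNAs of smooth muscle and pericytes, 1 was positive, miR-145 (r = 0.482, adjusted p = 0.0430, permutation test), with a median r of 0.207. This call was lost by Spearman's rho (0.440, adjusted p = 0.0740), with depth class means removed (r = 0.452, adjusted p = 0.0537) and without the 9 calves high in pituitary miRNAs (r = 0.374, adjusted p = 0.226). The values deposited for miR-126 also moved with the scaling itself. The log2 total of a library's values, which is set by its TMM factor, had r = 0.795 with the 5p arm and 0.409 with the 3p arm (permutation test, adjusted p = 0.00012 and 0.0881 over 12 relations). Under library size only, the median r was -0.039 for the 14 endothelial miRNAs, -0.362 for the 7 of the vessel wall and 0.035 over all 474, with 4 of the 14 (all positive) and 0 of the 7 called beside 35 positive (7.38%) and 31 negative (6.54%) of the 474.

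Each arm was therefore also taken alone. With miR-126-5p, 68 of 474 miRNAs were called positive (14.3%) and 93 negative (19.6%), and of the endothelial list 8 of 14 were positive and 2 negative, with a median r of 0.448. With miR-126-3p, 29 were called positive (6.12%) and 28 negative (5.91%), and of the endothelial list 3 of 14 were positive and 0 negative, with a median r of 0.280. On values scaled by library size only, the 5p arm had 1 positive (0.211%) and 8 negative (1.69%) of 474 and 0 of 14 endothelial miRNAs. The 3p arm then had 48 positive (10.1%) and 29 negative (6.12%), and 4 of 14 endothelial miRNAs, all positive. By Spearman's rho, 7 of 14 endothelial miRNAs were called positive and 1 negative with the 5p arm, beside 65 positive and 81 negative of all 474. MiR-17-5p, miR-20a and miR-221 were no longer called and miR-19b was added. With the 3p arm 3 of 14 were positive and 0 negative by rho, beside 29 and 28 of all 474. Thus none of the 10 endothelial calls with the 5p arm was made by library size only, while miR-17-5p, miR-20a and miR-23b-3p were called with the 3p arm under both scalings, and miR-18a by library size only.

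The miRNA of the vascular lists with the highest r with the 3p arm, and with the mean of the arms, was miR-23b-3p, of a cluster with miR-27b that takes part in vessel sprouting. Its values ran from 1355 over a median of 2130 to 3385, at about the level of the 3p arm of miR-126. With the 3p arm it had r = 0.783 and rho = 0.709 (permutation test, adjusted p = 0.000948 and 0.00237), and with the 5p arm r = 0.725 and rho = 0.727 (adjusted p = 0.000249 and 0.000316). The relation with the 3p arm was 0.719 in shallower and 0.847 in deeper libraries, and 0.748 by library size only (adjusted p = 0.00158). The values of miR-10174-3p were within 0.866% of those of miR-23b-3p in every library, so that reads of these entries cannot be told apart.

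Also of the miR-17-92 cluster, which promotes growth of vessels and other tissues, miR-17-5p and miR-20a were called with the 3p arm, at r = 0.629 and 0.634 (permutation test, adjusted p = 0.0045 and 0.00446). Under library size only they had r = 0.527 and 0.597 (adjusted p = 0.0228 and 0.00862). They resemble each other (r = 0.935) and are not independent. The others of the cluster differed, with r of 0.453 for miR-18a, 0.214 for miR-19b, 0.119 for miR-92a and -0.037 for miR-19a with the 3p arm as deposited, none called. With the 5p arm miR-92a, an inhibitor of vessel growth, had r = 0.620 (permutation test, adjusted p = 0.00246), but 0.00492 by library size only.

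The closely similar miR-27a-3p and miR-27b (r = 0.995 with each other) and miR-24-3p, of the same clusters as miR-23, were called with the 5p arm at r of 0.801, 0.794 and 0.713 (permutation test, adjusted p = 0.000249 for each). With the 3p arm they had r of 0.394, 0.404 and 0.346, not called. Their r with the 5p arm by library size only was 0.334, 0.362 and 0.116, not called. A difference between the arms in these relations was not tested.

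MiR-221 and miR-222, a cluster that restrains endothelial growth, went the other way. MiR-222 ran from 465 over a median of 667 to 867 and had r = -0.584 and rho = -0.611 with the 5p arm (permutation test, adjusted p = 0.0051 and 0.00306), and r = -0.448 with the 3p arm (adjusted p = 0.0830). MiR-221 had r = -0.457 with the 5p arm (adjusted p = 0.0368) and -0.368 with the 3p arm. Under library size only, r with the 5p arm was -0.335 for miR-222 and -0.445 for miR-221, neither called. The remaining endothelial miRNAs, miR-23a and miR-130a, had r of 0.434 (adjusted p = 0.0472, permutation test) and 0.216 with the 5p arm.

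Of the 7 miRNAs of the vessel wall, miR-143 and miR-145 were called with the 5p arm and 0 with the 3p arm, with median r of 0.374 and 0.0536. With the pituitary list score regressed out, 6 of these 7 were called with the mean of the arms, all positive and with both miR-199a-3p and miR-199c among them. Of the 14 endothelial miRNAs 9 were called, 7 positive and 2 negative. Of all 474 miRNAs 162 were called (34.2%), 75 positive (15.8%) and 87 negative (18.4%). A difference between the lists was not tested. MiR-143, the most abundant of the vessel wall miRNAs, ran from 34310 over a median of 95107 to 313867, a wider spread than either arm of miR-126. It had r = 0.644 and rho = 0.661 with the 5p arm (permutation test, adjusted p = 0.00135 and 0.000922) and r = 0.248 with the 3p arm. Its r with the 5p arm was 0.707 in shallower and 0.457 in deeper libraries, 0.006 among the lowest animal codes, 0.679 among the others and 0.079 by library size only. MiR-145, made from the same precursor transcript, had r = 0.466 with the 5p arm (adjusted p = 0.0354) and 0.417 with the 3p arm. MiR-199a-5p, miR-199a-3p, miR-199b, miR-199c and miR-214, known from pericytes and fibroblasts, had r between 0.330 and 0.402 with the 5p and between 0.045 and 0.057 with the 3p arm, none called. MiR-199a-3p and miR-199c differed by at most 0.161% in any library and count as 1 measurement.

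**Figure D5:**
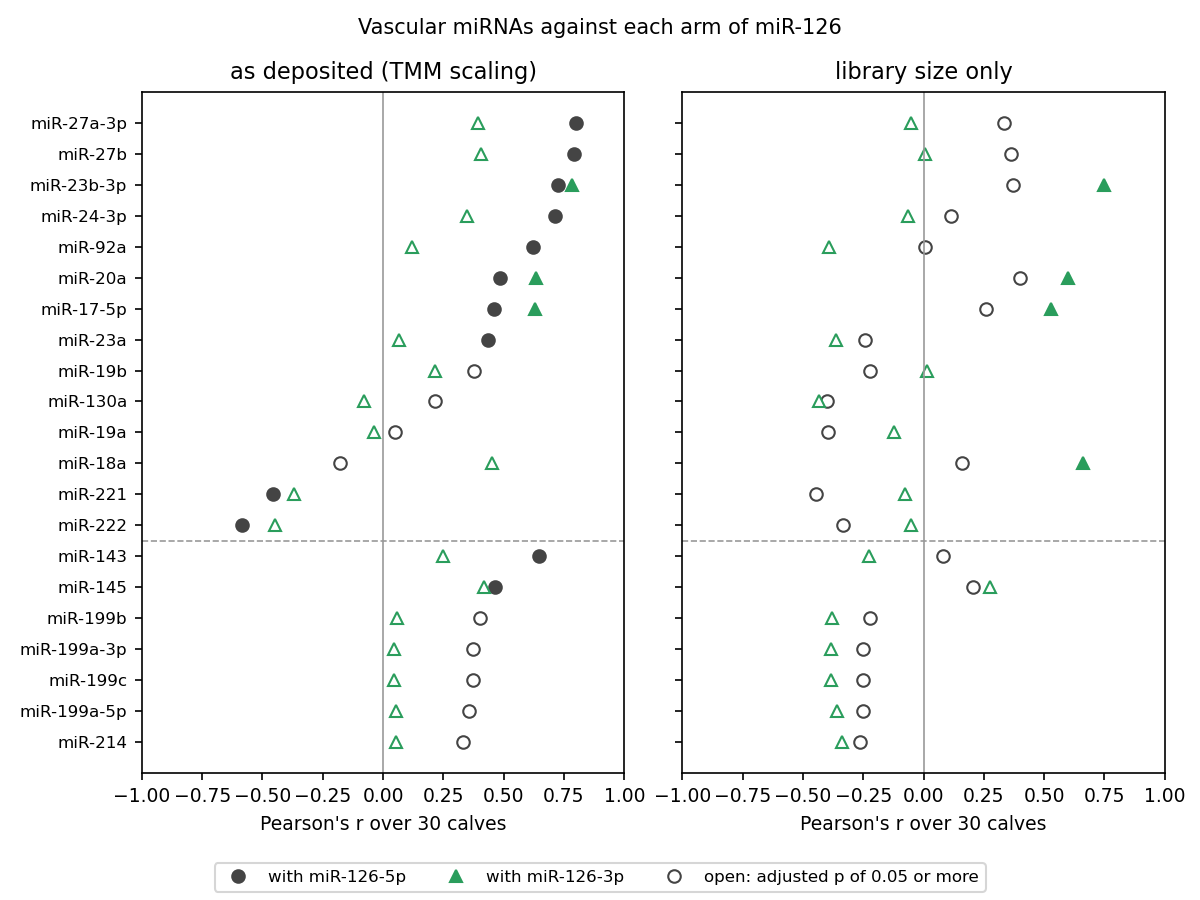
Pearson's r over 30 calves of each vascular miRNA with miR-126-5p (circles) and miR-126-3p (triangles), for the deposited values (left) and for library size only (right). Filled points have an adjusted p under 0.05, and the dashed line parts the endothelial list (above) from the smooth muscle and pericyte list. As deposited, 10 of 14 endothelial miRNAs are filled with the 5p arm and 3 with the 3p arm, and by library size only 0 and 4.

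Lists of other cell types were set against the mean of the arms, with which 7.59% of all 474 miRNAs were called positive and 11% negative. Of 3 erythroid miRNAs, miR-451 (r = 0.527) and miR-144 (r = 0.474) were called positive, and miR-486 had r = -0.434. Of 7 miRNAs of leukocytes, platelets and microglia, miR-146a (0.499) and miR-155 (0.480) were called positive, whereas the more abundant miR-142-5p (0.181) and miR-146b (0.061) were not called. Both oligodendrocyte miRNAs tested, miR-219-5p (0.533) and miR-338 (0.473), were positive. Of 8 neuronal miRNAs, miR-129 (-0.580) and miR-153 (-0.472) were called negative, while the abundant miR-9-5p and miR-124a had r of 0.110 and 0.061. Of 7 choroid plexus and ependymal miRNAs, miR-34c (-0.506) and miR-34b (-0.486) were negative, and the abundant miR-204 had r = -0.257. As deposited, none of 7 pituitary and epithelial miRNAs was called, with r from -0.075 to 0.082, those of the most abundant being -0.075 for miR-375 and 0.068 for miR-182.

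By Spearman's rho, miR-146a, miR-155, miR-153, miR-34b and miR-34c were not called. The scaling changed most of these relations. By library size only, miR-451 (0.319), miR-144 (0.257), miR-146a (0.254), miR-155 (-0.101), miR-153 (0.096), miR-34c (-0.205) and miR-34b (-0.190) were no longer called, whereas miR-129 (-0.617), miR-219-5p (0.702) and miR-338 (0.576) still were. Over all 474 miRNAs the median r was then 0.035, with 7.38% called positive and 6.54% negative. The median r of the pituitary and epithelial list went from 0.037 as deposited to -0.478, with 3 of 7 called negative (miR-375, miR-200c and miR-141). That of the neuronal list went from -0.038 to 0.414, with miR-124a and miR-124b, whose values are identical, called positive and miR-129 negative. How the pituitary and neuronal lists as wholes went with miR-126 thus depended on the scaling, while the neuronal miR-129 was called negative under both scalings. The summed erythroid list ran from 21182 to 40320 and the summed leukocyte list from 2135 to 4136, without a library at 0. The part of blood left in the vessels in these relations was not tested.

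Over all 474 miRNAs, those most like the mean of the arms were miR-10174-3p and miR-23b-3p (r = 0.834 each), miR-16a (0.820), let-7b (0.776) and miR-26a (0.746). Each of these was also called by library size only, with r from 0.623 for let-7b to 0.702 for miR-16a. MiR-16a, a brake on the cell cycle that is also abundant in blood cells, ran from 624 over a median of 890 to 1608. Least like it were miR-767 (-0.773), miR-301a (-0.770), miR-208b (-0.749), miR-105a (-0.747) and miR-671 (-0.721). Under library size only these had r between -0.342 and -0.135 and none was called. Among these 10 miRNAs, those called under both scalings were thus the 5 positive ones.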

How the data were processed

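The miRNA profiles of 30 ARC samples were analysed, and diets were taken from the labels. Adapters were removed by the authors with Cutadapt, reads outside 15 to 28 bases and reads of other short RNA species were discarded, and miRDeep2 with Bowtie quantified the miRBase entries of cattle on ARS-UCD1.2. The labels name a stranded RNA kit and the study's methods a small RNA kit. The signal values the authors deposited are decimals in the form of CPM over TMM-scaled library sizes, and recomputed TMM factors differed by at most 0.582%. Dividing by the worth of 1 read gave whole reads (within 0.1 read) for 94.5% to 97.9% of values under 200 reads. In 3 libraries this share was under 95%.

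FilterByExpr kept 476 of 863 miRNAs with a read (at least 1.16 CPM in at least 14 libraries). The test was limma (3.58.1, R 4.3.3) on log2(value + 0.25), with edgeR (4.0.16) and DESeq2 (1.42.0) on recovered reads as alternatives. Other comparisons used permutation tests (two-sided on the absolute difference in means or absolute correlation, 100000 resamples), made exact where a group held under 10 calves. Adjusted p-values are Benjamini-Hochberg over all miRNAs or arm pairs tested. The members, lists and tests were chosen with earlier results of these data known, and the tests of each arm alone, of the arm ratio against other ratios and of depth within subsets were added after seeing the data. MiRNAs were named by list membership, by rank of r with the mean of the arms and by likeness of arm ratio, and for the arm ratio the closest relations were picked after their values were seen. The code was tested on simulated data. Sequences were not used here. Intervals and floors cover counting error only where based on reads.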

Additional observations from a re-analysis of the deposited data

How the results depend on the processing

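The diet differences of both arms kept their sign and stayed uncalled under all 10 alternatives (scaling, filter, pseudocount, count tests, terms for depth, animal code or pituitary list, and the calves high in that list left out), from -0.19 to -0.03 for the 5p arm and from -0.13 to -0.03 for the 3p arm on the log2 scale. With each calf left out in turn they were -0.11 to -0.03 and -0.16 to -0.03. The count of miRNAs called between diets was 0 under 9 alternatives and 1 by DESeq2's Wald test, and 0 to 1 with each calf left out (1 when either A77860, an HI calf, or A97854, a MOD calf, was omitted). No paired analysis was possible because no number in the labels pairs HI with MOD calves and every calf received a single diet.

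The diet difference of the arm ratio, 0.02, had the opposite sign in the deeper class (-0.28), among the lowest animal codes (-0.0211), among the other codes (-0.15) and without the 9 calves high in pituitary miRNAs (-0.0209), and lay between -0.0199 and 0.0703 with each calf left out, never past the threshold. Its depth difference, -0.29, missed p of 0.05 in the MOD calves (-0.17), among the other codes (-0.17) and without the calves high in pituitary miRNAs (-0.21), where fewer calves were compared. With each calf left out it was -0.34 to -0.23 (highest p = 0.0343, exact permutation test). The depth difference of the 5p arm, 0.02, was -0.0114 with DESeq2's size factors and -0.0356 in edgeR's quasi-likelihood test, and its farthest value was 0.19 with the animal code class as a term, while that of the 3p arm kept its sign. None of these was called. The correlation of the arms stayed between 0.545 and 0.793 under 9 alternatives and between 0.590 and 0.684 with each calf left out, and missed the threshold in the deeper class (0.648, n = 9, exact permutation test). By Spearman's rho the correlation missed it in the deeper class, in the HI calves and among the lowest animal codes.

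The count of miRNAs correlated with miR-126, 88 of 474, was 162 with the pituitary list score regressed out and 112 without the calves high in that list. It was 112 with DESeq2's size factors, 78 by Spearman's rho and 66 by library size only. With the 5p arm alone it was 161 and with the 3p arm alone 57, or 9 and 77 by library size only. For the endothelial list, 7 became 4 by library size only, 3 with the 3p arm alone, 0 with the 5p arm by library size only and 4 with the 3p arm by library size only. For the vessel wall list, 1 became 0 by Spearman's rho, by library size only, without the calves high in pituitary miRNAs, with the 3p arm alone and with either arm by library size only, 2 with DESeq2's size factors or with the 5p arm alone, and 6 with the pituitary score regressed out. The causes were not tested. By library size only, r with the mean of the arms turned to -0.00441 for miR-24-3p, -0.101 for miR-155 and 0.096 for miR-153. Of 216 values for 27 named miRNAs under 8 alternatives, 182 kept their call and direction, 31 lost the call, 14 of these by library size only, and 3 changed sign.

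Counting error was small beside the spread between calves in the arm ratio. The parts of library preparation and of library class in that spread were not tested. The calls of other miRNAs with miR-126-5p depended on the scaling.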
